A study of Mus musculus with 12 samples.

Results

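A set of 10 genes of the exocrine acinar program was followed in the DNA methylation data of beta cells, the 4 transcription factor genes Ptf1a, Rbpjl, Bhlha15 and Nr5a2 and the 6 digestive enzyme genes Cpa1, Cela1, Cela2a, Cel, Pnlip and Ctrb1. They were chosen by name, as 10 of 21757 protein-coding genes of the GENCODE annotation of mm39, and each was taken with 10 kb on either side of its gene body. These windows held 33 of 87689 hypomethylated regions (HMRs, stretches in which the CpGs are methylated less than their surroundings), where the HMRs of the 4 pools described below were merged wherever they overlapped. The factor windows held 24 of them and the enzyme windows 9.

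Acinar cells make and secrete the digestive enzymes of the pancreas, and they share an embryonic origin with the hormone-producing islet cells. The factor Ptf1a first marks multipotent pancreatic progenitors and later, in a complex with Rbpjl, drives enzyme genes in acinar cells, together with Nr5a2 and Bhlha15. Beta cells do not make digestive enzymes. Methylation of CpGs at a promoter or enhancer usually goes with a silent element, while CpG-dense promoters often stay unmethylated whether or not their gene is used.

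Whole genome bisulfite sequencing was done on 12 libraries of sorted beta cells from Myt1cCre; Ngn3nCre; Rosa26eYFP; InsApple mice, 2 libraries for each of 2 subtypes at postnatal day 2 (P2) and 4 for each at postnatal day 60 (P60). All mice carried every allele: eYFP+ cells descend from islet progenitors that had both Myt1 and Ngn3 (M+N+ in the titles), eYFP- cells from those with Ngn3 and without Myt1 (M-N+), and Apple under insulin control marked beta cells for sorting. Each library combined cells of several sorts and mice, the label of the reporter is eGFP and the labelled cell type is all islet cells, whereas titles and methods name sorted beta cells. Read counts of single CpGs were deposited as 1 pool for each subtype and stage, so levels have counting error and no error between mice, and for a single library the files hold where its HMRs lie and no levels.

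The pools had a mean of 24.4 and 24.6 reads per CpG at P2 (eYFP- and eYFP+) and of 44.1 and 43.9 at P60. Between 57109 and 60950 HMRs were listed in the P2 libraries and between 38052 and 49939 in the P60 libraries. The 2 P2 eYFP- libraries went against their sex labels: of 253 X-linked HMRs found in P60 male libraries alone, the library labelled female held 91.7% and the library labelled male 13.4%, against 13.0% and 83.8% for the eYFP+ libraries. No acinar gene of the 10 lies on a sex chromosome, and values without the P2 eYFP- libraries are given where libraries were compared. The beta-cell label was checked at 12 promoters of beta-cell genes, whose median level was 14.8% and 19.3% at P2 and 8.52% and 8.02% at P60. This was above the median of all promoters at P2 (11.9% and 12.2%) and below it at P60 (12% and 12.3%). The 12 ranged from Pdx1, a beta-cell and pancreas factor, between 0.773% and 1.01%, to Ucn3, a hormone gene of mature beta cells, at 37.1% and 42.8% at P2 and at 40.1% and 40.8% at P60. Ins1, an insulin gene, was at 25.4% and 31.6% at P2 and at 8.30% and 7.69% at P60. Among hormone genes of other islet cells, Gcg (glucagon) was between 56.7% and 65.5%, Ppy (pancreatic polypeptide) between 78.9% and 83.8% and Sst (somatostatin) between 17.9% and 24.4%. The further listed genes of other islet cells, Irx1, Irx2 and Hhex, were between 0.99% and 2.8%. The median of these 6 genes was 9.66% and 13.1% at P2 and 11.2% and 11.3% at P60. At P2 it was thus below that of the beta-cell genes, and the promoters of the 2 lists do not set the cell types apart. All P2 libraries came in 1 submission and the P60 libraries in others, so age and sequencing submission cannot be told apart. A pool is an average over its cells, and a smaller share of some cell type cannot be told apart from a smaller change in every cell.

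The 4 stretches below, each directly upstream of a start, are shown first because the results below turn on their CpGs, 2 of factor genes and 2 of enzyme genes. They were read from the GRCm39 genome (the same build as mm39), 250 bases each, 5′ to 3′ on the strand of the gene and ending just before the start, with every CpG in capitals. Ptf1a lies at chr2:19450224-19450473 (plus strand), Rbpjl at chr2:164244740-164244989 (plus), Cela1 at chr15:100585806-100586055 (minus) and Cpa1 at chr6:30638967-30639216 (plus).
Ptf1a upstream: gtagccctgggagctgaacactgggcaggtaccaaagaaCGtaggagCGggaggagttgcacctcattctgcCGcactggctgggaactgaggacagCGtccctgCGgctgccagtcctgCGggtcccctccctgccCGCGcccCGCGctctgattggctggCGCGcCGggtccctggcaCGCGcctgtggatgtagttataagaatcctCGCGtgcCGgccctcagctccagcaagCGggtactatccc
Rbpjl upstream: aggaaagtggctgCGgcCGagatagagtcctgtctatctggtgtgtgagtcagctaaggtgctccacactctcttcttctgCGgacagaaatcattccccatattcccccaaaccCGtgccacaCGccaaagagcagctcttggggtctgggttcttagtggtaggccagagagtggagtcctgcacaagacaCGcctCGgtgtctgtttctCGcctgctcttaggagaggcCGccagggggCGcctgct
Cela1 upstream: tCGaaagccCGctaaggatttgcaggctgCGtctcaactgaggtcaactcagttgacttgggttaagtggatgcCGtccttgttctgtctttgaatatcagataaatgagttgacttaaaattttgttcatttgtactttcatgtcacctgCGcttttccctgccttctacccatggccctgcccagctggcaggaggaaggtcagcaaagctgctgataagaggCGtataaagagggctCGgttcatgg
Cpa1 upstream: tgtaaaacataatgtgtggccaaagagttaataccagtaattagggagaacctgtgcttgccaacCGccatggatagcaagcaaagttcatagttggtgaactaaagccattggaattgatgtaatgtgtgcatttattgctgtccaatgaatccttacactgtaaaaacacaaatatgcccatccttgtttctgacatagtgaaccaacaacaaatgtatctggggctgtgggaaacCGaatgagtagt

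The Ptf1a stretch held 19 CpGs, that of Rbpjl 10, that of Cela1 7 and that of Cpa1 2. Over 300 bases from 250 before to 50 after the start, the members had between 1 (Ctrb1) and 23 CpGs (Ptf1a), and the median of all 21757 promoters was 11. The PTF1 complex of Ptf1a and Rbpjl is known to bind an E-box together with a TC-box. CACCTG (E-box) was found on either strand in 5 of 10 members and in 20.6% of all promoters, TTTCCC (TC-box) in 4 of 10 and 27.0%, and both in Cela1 and Cel and in 5.41% of all promoters. AAGGTCA, the letters of a site for NR5A2, were in Cela1 and Cel too and in 4.48% of all promoters. In Cela1, CACCTG began at -105 and TTTCCC at -95 on the gene's strand, and the CpG between them, at -99, was among those measured below. A match of letters is a description and not a site.

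The 4 factor promoters were methylated less than the 6 enzyme promoters in every pool. From 1000 bp before to 500 bp after the start, the factor promoters were between 1.07% and 31.8% over the 4 pools, and the enzyme promoters between 42.2% and 85.8%, so the groups did not overlap. The factor promoters held 34 to 90 CpGs and the enzyme promoters 6 to 26, against a median of 52 in all tested promoters. Among all promoters, ranked by level, Ptf1a stood between the percentiles 6.72 and 11.3, the other 3 factors between 52.5 and 65.5, and the enzymes between 68.1 and 98.4, so Ptf1a was the 1 member below the median. The median of the 10 members was 57.1% and 52.2% at P2 and 55.1% and 56.5% at P60 (eYFP- and eYFP+), beside the medians given above for all 20812 tested promoters. Above 50% stood 6 of 10 members in the P2 eYFP- pool and 5 in each of the others, against 29.0% of all promoters in 3 pools and 28.7% in P60 eYFP+ cells.

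Ptf1a, the progenitor and acinar factor (gene at chr2:19450474-19452312), was at 1.34% and 1.07% at P2 and at 1.44% and 1.45% at P60 over 90 CpGs. It was the lowest of the members in every pool, and its 95% Wilson intervals all lay under 2%, which cover counting error only. Rbpjl, the acinar-specific partner of Ptf1a (chr2:164244990-164258197), was at 27.0% and 30.7% at P2 and at 27.8% and 31.8% at P60. Bhlha15, which shapes the secretory apparatus (chr5:144127086-144131259), was at 20.7% and 15.2% at P2 and at 13.3% and 14.5% at P60. Nr5a2, a nuclear receptor of enzyme genes (chr1:136770303-136888186, minus strand), was at 19.4% and 14.5% at P2 and at 21.3% in both P60 pools. The intervals of Bhlha15 and Nr5a2 overlapped at P2 and did not at P60, where Bhlha15 was the lower of the pair.

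Among the enzymes, Cel, the bile salt-stimulated lipase (chr2:28445807-28453415, minus), had the lowest promoter level, 52.3% and 49.2% at P2 and 42.2% and 46.0% at P60. The elastase gene Cela1 (chr15:100572302-100585805, minus) was at 61.9% and 55.3% at P2 and at 67.9% and 67.1% at P60. Cela2a, a further elastase (chr4:141542265-141553471, minus), was at 64.5% and 69.9% at P2 and at 68.9% and 67.7% at P60, and its intervals overlapped those of Cela1 at P60. Pancreatic lipase, Pnlip (chr19:58640831-58670288), was at 82.1% and 83.1% at P2 and at 74.5% and 74.1% at P60. Carboxypeptidase A1, Cpa1 (chr6:30639217-30645362), was at 71.8% and 69.2% at P2 and at 84.7% and 85.8% at P60. Chymotrypsinogen B, Ctrb1 (chr8:112413149-112417643, minus), had 6 CpGs and stood at 85.3%, 85.8%, 82.7% and 81.2%. Ctrb1 and Pnlip were the most methylated at P2, while at P60 Cpa1 and Ctrb1 were, with overlapping intervals within each pair.

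**Figure D1:**
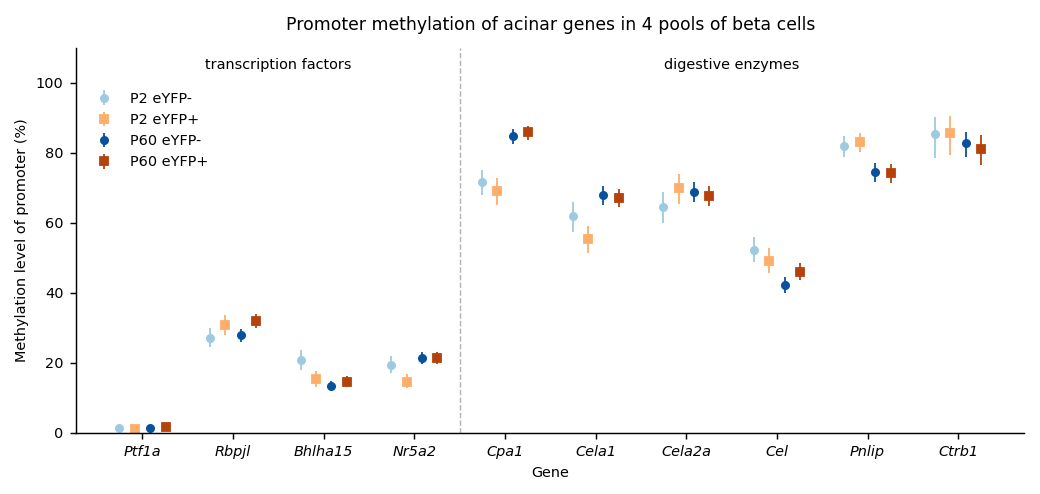
Methylation level (%) of the promoters (1000 bp before to 500 bp after the start) of the 10 genes, with 1 point for each of the 4 pools and bars for the 95% Wilson interval of counting error. The 4 factor genes sit at 31.8% or below and the 6 enzyme genes at 42.2% or above. Cpa1 is higher and Pnlip lower at P60 than at P2 in both subtypes.

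With age, Cpa1 was the promoter that rose in both subtypes. A promoter was called where the adjusted p of Fisher's exact test on pooled reads (Benjamini-Hochberg over 20812 promoters) was under 0.05 and the difference at least 10 percentage points. Cpa1 rose by 13.0 points in eYFP- cells (adjusted exact p = 1.56e-08) and by 16.7 points in eYFP+ cells (adjusted exact p = 4.6e-13). Cela1 rose by 11.8 points in eYFP+ cells (adjusted exact p = 1.58e-05), with 6.01 points in eYFP- cells (adjusted exact p = 0.0643). Cel fell by 10.1 points in eYFP- cells (adjusted exact p = 6.37e-05), with -3.20 points in eYFP+ cells (adjusted exact p = 0.275). So 1 member was called higher and 1 lower in eYFP- cells, where 3.28% and 2.58% of all promoters were, and 2 were called higher and 0 lower in eYFP+ cells, where 3.04% and 4.42% were. With a promoter from 2000 bp before to 1000 bp after the start, Cpa1 was higher by 8.0 and 8.52 points, Cela1 in eYFP+ cells by 7.57 points and Cel lower in eYFP- cells (-7.04 points), all under the minimum. With 250 bp before to 50 bp after, Cel in eYFP- cells turned to 7.65 points (adjusted exact p = 0.48). Whether the change of a promoter differed between the subtypes was not tested.

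Pnlip was lower at P60, with -7.57 points in eYFP- cells (adjusted exact p = 0.00358) and -8.99 points in eYFP+ cells (adjusted exact p = 0.000139), under the minimum of 10 points. The same held for Bhlha15 in eYFP- cells (-7.43 points, adjusted exact p = 4.32e-05) and Nr5a2 in eYFP+ cells (6.79 points higher, adjusted exact p = 3.55e-05). Fisher's test on pooled reads compares these pools of DNA and not mice.

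No member promoter differed between eYFP+ and eYFP- cells by the call rule, at P2 (0.231% of all promoters called) or at P60 (0.0817%). By unadjusted Fisher's exact tests, 3 promoters had p under 0.05 at P2 and 2 at P60, with lowest adjusted p of 0.0664 (Nr5a2) and 0.0844 (Rbpjl). The difference of eYFP+ minus eYFP- at P2 was -4.86 points for Nr5a2 and -5.46 points for Bhlha15, and at P60 it was 0.0533 and 1.26 points. As an unweighted mean over CpGs, that of Bhlha15 at P2 was 0.655 points. Rbpjl was higher in eYFP+ cells by 3.73 points at P2 and 4.04 points at P60.

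Close to the start the genes fell into clearly different patterns of single CpGs. All 23 CpGs of Ptf1a from 250 bp before to 50 bp after the start were at 7.14% or less in every pool, and the 16 CpGs of Bhlha15 were at 11.1% or less at P2 and at 3.33% or less at P60. In Rbpjl the outermost 2 CpGs shown above, at -237 and -233, were between 75.0% and 100.0% methylated, while the other 8 were at 10% or less. The border of the unmethylated stretch of Rbpjl thus lay inside the printed sequence in all 4 pools.

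The start of Cela1 gained methylation with age. Its 8 CpGs in this short window had a pooled level of 37.6% and 28.7% at P2 and of 55.8% and 58.2% at P60. They rose by 18.3 points in eYFP- cells (adjusted exact p = 0.00344, Fisher's exact test over 17077 promoters of this length, of which 4.36% were called higher) and by 29.4 points in eYFP+ cells (adjusted exact p = 1.24e-10, 4.25% called higher). The level was higher at P60 in 7 of the 8 CpGs in eYFP- cells and in 8 of 8 in eYFP+ cells. The CpG at -99, between the E-box and the TC-box letters, was at 26.7% and 19.0% at P2 (15 and 21 reads) and at 48.3% and 58.1% at P60 (58 and 62 reads). The CpG at -25 went from 16.7% and 27.8% to 68.9% and 68.3%.

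Nr5a2 had a graded start. The pooled level of its 12 CpGs in the short window was 19.6% in eYFP- and 7.55% in eYFP+ cells at P2, and 28.5% and 24.4% at P60. Here the difference of eYFP+ minus eYFP- was -12 points at P2 (adjusted exact p = 0.00127). Of short promoters, 0.041% were called lower, and the share called higher is not given here. The longer promoter of Nr5a2 was not called at P2 (-4.86 points, adjusted p of Fisher's exact test 0.0664). With age the 12 CpGs of the short window rose by 16.8 points in eYFP+ cells (adjusted exact p = 7.23e-10). In eYFP- cells they were higher at P60 by 8.94 points (adjusted exact p = 0.0181), under the minimum of 10. At P60 the subtypes differed by -4.15 points (adjusted exact p = 0.769).

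The other enzyme starts were neither unmethylated nor called changed in the short window. Cel, with 5 matches to CACCTG, was at 19.8% and 29.3% at P2 and at 27.5% and 28.3% at P60. The CpG of Cela2a nearest to its start, at -6, was at 23.1%, 32.1%, 21.2% and 22.1%, whereas the one at -249 was at 79.2%, 80%, 84.1% and 85.7%. The 11 CpGs of Pnlip stood at 84.1%, 82.5%, 75.9% and 77.9%. Cpa1 and Ctrb1 had fewer than the 3 CpGs required, and the 2 CpGs of Cpa1 in the sequence above were between 40.7% and 78.4%.

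**Figure D2:**
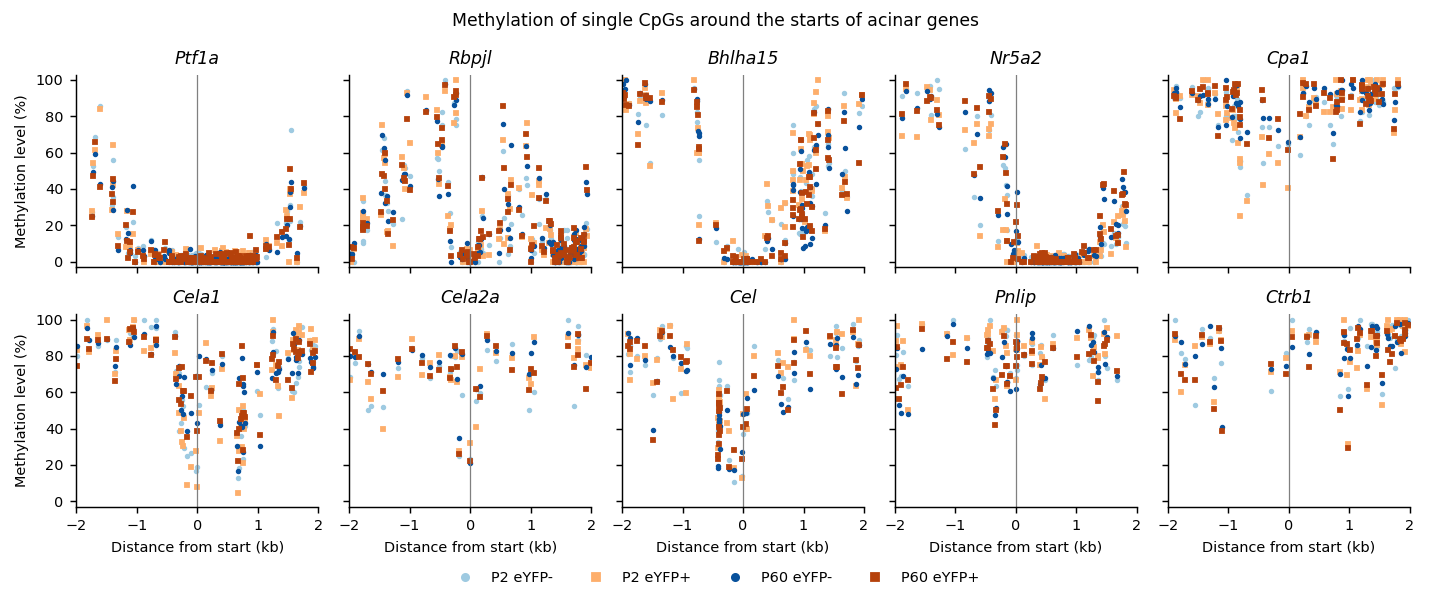
Methylation level (%) of each CpG within 2 kb of the start (x axis, kb, negative upstream) of the 10 genes, 1 point per CpG and pool. Ptf1a, Bhlha15 and Nr5a2 have a wide unmethylated stretch at or after the start, Rbpjl a short one at the start and another downstream, Cela1, Cela2a and Cel a dip, and Pnlip and Ctrb1 no CpG near 0% at the start.

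Of the 33 HMRs in the windows, the longest lay in those of factor genes, to which they were assigned by position alone. At the Ptf1a start lay Ptf1a HMR 2 (chr2:19449159-19453670, 4512 bp), at 3.53% and 4.16% at P2 and at 3.47% and 3.8% at P60 over 204 CpGs. It also covered transcript starts of 1810010K12Rik and Ptf1aos. Ptf1a HMR 4 (chr2:19456128-19461159, 5032 bp), downstream at a start of 1810010K12Rik, was between 5.37% and 6.36%. Both were present in 12 of 12 libraries, and in no comparison of pools did either pass the test (lowest adjusted exact p 0.145).

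Rbpjl HMR 2 (chr2:164244821-164247265) covered the starts of Rbpjl and of its neighbour Matn4 and was at 11.5% and 12.4% at P2 and at 16.2% and 16.6% at P60. The lowest in that window was Rbpjl HMR 3 (chr2:164249682-164250186) in a coding exon, between 3.00% and 5.81%. Bhlha15 HMR 3 (chr5:144126365-144127914), at the Bhlha15 start, was at 10.7% and 8.31% at P2 and at 4.48% and 4.12% at P60. Nr5a2 HMR 6 (chr1:136874645-136877602), at the Nr5a2 start, was at 8.62% and 6.0% at P2 and at 14.1% and 13.6% at P60. Nr5a2 HMR 5 (chr1:136843119-136843679) in an intron was the lowest of its window in the P2 eYFP- pool, with 4.95%, and stood at 6.03% in P2 eYFP+ cells.

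The enzyme genes had no HMR at their canonical start. Cpa1 and Cela2a had none in their windows, and the only HMR of the Cel window (chr2:28437844-28438193) lay in an intron of the neighbour Ralgds, at 14.2%, 17.4%, 15.8% and 16.1%. The lowest of the Pnlip window was Pnlip HMR 2 (chr19:58638562-58638737), 4 CpGs at 5.94%, 6.06%, 2.72% and 3.66%, present in the P60 pools and in no single library. Those of the Cela1 and Ctrb1 windows lay in introns or outside genes, centred 2568 bp or more from the canonical start, and 2 of Cela1 (HMR 2 and HMR 3) covered starts of other Cela1 transcripts. Outside HMRs, the windows of Cpa1 were at 82.6% and 83.0% at P2 and 88.4% and 88.1% at P60, and those of Ptf1a at 64.5%, 64.7%, 57.4% and 58.5%, while all CpGs of the genome outside HMRs were at 77.0%, 77.7%, 77.4% and 76.7%.

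The levels of these genes' HMRs were mostly higher at P60 than at P2, as were those of HMRs genome-wide. By the same rule (Fisher's exact test), with adjustment over 84192 tested HMRs, 9 of 33 rose and 1 fell in eYFP- cells, and 9 rose and 2 fell in eYFP+ cells. Of all HMRs, 28.2% were called higher and 2.9% lower in eYFP- cells, and 26.8% and 3.84% in eYFP+ cells, so the members' counts were near the background. The median difference of the 33 was 5.51 and 5.04 points, beside 2.94 and 2.39 points over all HMRs. In both subtypes 7 rose and 1 fell, and 20 were called in neither. An HMR is in the merged set because at least 1 pool was low there, so where the pools that called it are all of 1 stage, its change with age was tested on the reads that chose it and is a description. Of the HMRs named below, Nr5a2 HMR 3, Cela1 HMR 1, Bhlha15 HMR 1 and Ctrb1 HMR 2 were called in the 2 P2 pools alone, Rbpjl HMR 7 in the P2 eYFP+ pool, Pnlip HMR 3 in the P2 eYFP- pool and Bhlha15 HMR 4 in the P60 eYFP- pool. Of the 20 member HMRs called in all 4 pools, 4 rose and 0 fell in eYFP- cells, where 11.4% and 1.1% of all such HMRs did, and 3 rose and 0 fell in eYFP+ cells, where 9.95% and 1.66% did. Those that rose were Nr5a2 HMR 4 and Cela1 HMR 2 in both subtypes, Nr5a2 HMR 9 and Pnlip HMR 1 in eYFP- cells and Nr5a2 HMR 2 in eYFP+ cells. The median difference of the 20 was 5.06 and 5.42 points, beside 1.25 and 0.881 points over all such HMRs. Nr5a2 gave more of the 20 than any other window (HMRs 1, 2 and 4 to 9), each higher at P60 by 4.24 to 17.8 points. HMRs of 1 window are not independent, so these medians do not describe the members at large. Ptf1a HMR 4 and Bhlha15 HMR 3, for example, were lower at P60 in both subtypes.

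The largest rise was that of Bhlha15 HMR 1 (chr5:144119676-144120117), centred at -7189 bp from the Bhlha15 start in an intron of the neighbour Lmtk2 and reaching into the next exon. Its 300 bases up to the next Lmtk2 exon, chr5:144119700-144119999 on the plus strand, are shown because they hold 7 of its 12 CpGs, again in capitals.
Bhlha15 HMR 1: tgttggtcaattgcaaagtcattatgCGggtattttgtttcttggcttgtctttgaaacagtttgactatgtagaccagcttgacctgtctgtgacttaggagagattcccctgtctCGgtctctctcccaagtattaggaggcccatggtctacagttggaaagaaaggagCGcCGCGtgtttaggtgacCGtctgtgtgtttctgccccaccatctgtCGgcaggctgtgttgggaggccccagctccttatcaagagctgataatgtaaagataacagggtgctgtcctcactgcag

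Bhlha15 HMR 1 was at 25.3% (95% Wilson interval 21.0 to 30.2) and 24.4% (20.1 to 29.3) at P2 and at 73.0% (69.6 to 76.2) and 71.4% (68.0 to 74.6) at P60. The intervals of the stages were far apart and those of the subtypes overlapped. The rise was 47.7 points in eYFP- cells (adjusted exact p = 2.42e-46) and 47.0 points in eYFP+ cells (adjusted exact p = 1.2e-44), and all 12 CpGs were higher at P60 in both. As the region was in the set through the P2 pools alone, its change with age is a description. Among the 7 printed CpGs, levels ran from 8.0% to 72.7% and from 2.86% to 48.0% at P2, and from 37.3% to 92.6% and from 45.0% to 97.3% at P60. This HMR was called in 4 of 4 P2 libraries and 0 of 8 P60 libraries, as was Cela1 HMR 1, so 2 of 33 had that pattern, where 5.49% of all tested HMRs did. The next HMR, Bhlha15 HMR 2, also in an Lmtk2 intron, was at 11.4% and 12.9% at P2 and at 18.1% and 18.0% at P60.

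Bhlha15 HMR 4 (chr5:144128064-144128222) was the 1 HMR called lower at P60 in both subtypes. It was in the set through the P60 eYFP- pool alone, so its difference with age in eYFP- cells and that between the subtypes at P60 are descriptions. It lies in the Bhlha15 coding exon, and its 159 bases are shown on the plus strand. They carry a difference in the opposite direction to HMR 1 of the same window, which lies in Lmtk2. A twelfth CpG begins at the last base.
Bhlha15 HMR 4: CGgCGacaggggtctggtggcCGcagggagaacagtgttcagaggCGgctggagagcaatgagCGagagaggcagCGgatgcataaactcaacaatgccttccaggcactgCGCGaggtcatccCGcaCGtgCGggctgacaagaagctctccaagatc

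Bhlha15 HMR 4 was at 36.5% and 46.2% at P2 and at 22.1% and 30.8% at P60. The difference of P60 minus P2 was -14.4 points in eYFP- cells (adjusted exact p = 3.39e-06) and -15.4 points in eYFP+ cells (adjusted exact p = 1.15e-05), and 10 of its 12 CpGs were lower at P60 in each subtype. It was also higher in eYFP+ than in eYFP- cells at both stages, by 9.62 points at P2 (adjusted exact p = 0.166) and 8.70 points at P60 (adjusted exact p = 0.019), both under the minimum of 10 points, with 10 of 12 CpGs higher in eYFP+ cells at each stage. An HMR was called there in 3 of 4 P60 eYFP- libraries, in 0 of 4 P60 eYFP+ libraries and in none at P2.

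**Figure D3:**
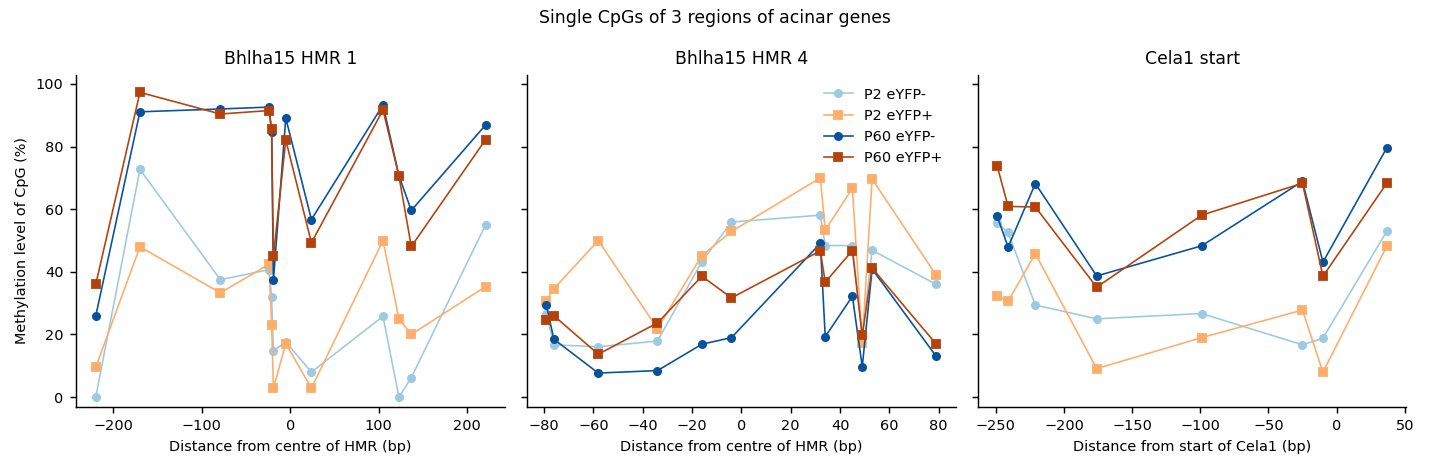
Methylation level (%) of single CpGs in Bhlha15 HMR 1, in Bhlha15 HMR 4 and at the start of Cela1, against the distance (bp) from the centre of the HMR or from the start, with 1 line for each pool. In Bhlha15 HMR 1 all 12 CpGs are higher at P60, in HMR 4 10 of 12 are lower, and at Cela1 7 (eYFP-) and 8 (eYFP+) of 8 are higher.

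Other HMRs of the factor genes that rose in both subtypes were in or near Nr5a2 and Rbpjl. Nr5a2 HMR 3 (chr1:136822446-136823239, intron) went from 19.8% and 15.3% to 45.8% and 46.1%, a rise of 26.0 and 30.8 points (adjusted exact p = 7.09e-08 and 2.49e-12), with 7 of 7 CpGs higher in each, and was called in 1 of 4 P2 libraries and 0 of 8 P60 libraries. Nr5a2 HMR 4 (chr1:136837918-136839445, intron) went from 14.4% and 10.4% to 28.0% and 28.2% (adjusted exact p = 4.92e-12 and 5.51e-23). Rbpjl HMR 7 (chr2:164260485-164261009), beyond the end of the gene, went from 22.7% and 13.4% to 40.3% and 37.2% (adjusted exact p = 0.000266 and 1.67e-07). Nr5a2 HMR 3 and Rbpjl HMR 7 were in the set through P2 pools alone, so their changes with age are descriptions. Nr5a2 HMR 4 was called in all 4 pools. In 1 subtype, Nr5a2 HMR 2 (chr1:136818265-136819027) rose by 10.8 points in eYFP+ cells with 9.14 points in eYFP- cells, and Nr5a2 HMR 9 (chr1:136894230-136895185) rose by 10.4 points in eYFP- cells with 9.59 points in eYFP+ cells. All 9 HMRs of Nr5a2 had higher levels at P60 in both subtypes, between 4.24 and 30.8 points, with the largest value that of HMR 3. Over all HMRs the median difference was 2.94 points in eYFP- and 2.39 points in eYFP+ cells. The share of all HMRs with a higher level at P60 is not given here. HMRs of 1 window are not independent, so nothing particular to Nr5a2 is read from this count.

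In the enzyme windows, Cela1 HMR 1 (chr15:100563668-100564842), in an intron of the neighbour Bin2, went from 22.5% and 16.7% to 40.8% and 42.1% (adjusted exact p = 3.71e-13 and 2.96e-26). Cela1 HMR 2 (chr15:100576842-100577206), in a Cela1 intron, went from 12.1% and 10.5% to 23.0% and 22.0% (adjusted exact p = 3.16e-05 and 1.63e-06). Ctrb1 HMR 2 (chr8:112409219-112409338), downstream of the gene, went from 15.1% and 14.1% to 29.7% and 27.6% (adjusted exact p = 0.000747 and 0.00185). These rises were called in both subtypes. Cela1 HMR 1 and Ctrb1 HMR 2 were in the set through the P2 pools alone, so their changes with age are descriptions. Cela1 HMR 2 was called in all 4 pools. Upstream of Pnlip, HMR 1 (chr19:58634107-58634819) rose by 12.7 points in eYFP- cells with 7.78 points in eYFP+ cells. Pnlip HMR 3 (chr19:58656299-58656468), inside the gene record and before the canonical start, rose by 12.7 points in eYFP+ cells with 9.64 points in eYFP- cells. It was in the set through the P2 eYFP- pool alone, so its change with age is a description too.

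**Figure D4:**
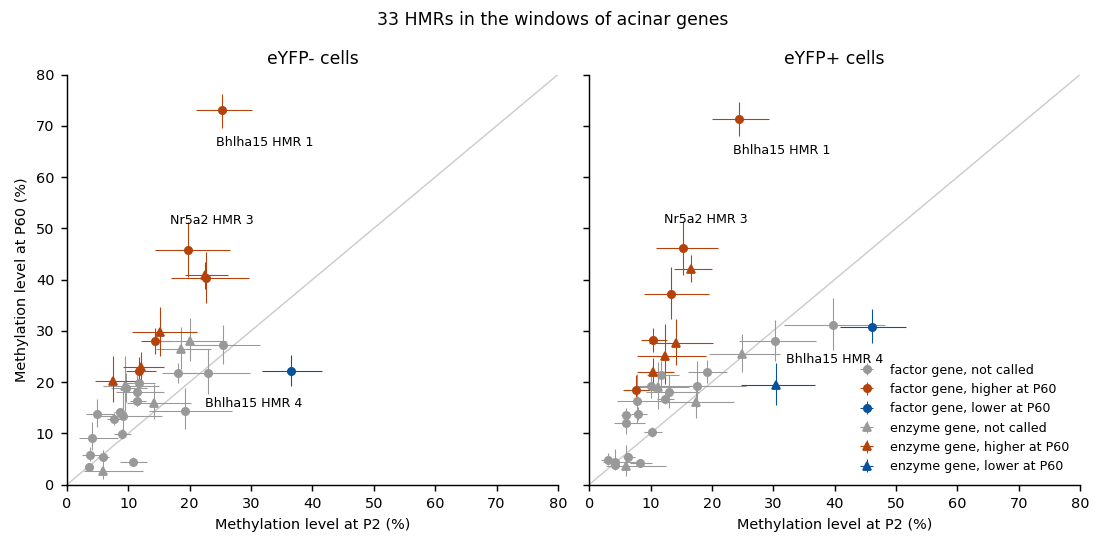
Methylation level (%) at P60 against that at P2 of the 33 HMRs in eYFP- and eYFP+ cells, with bars for the 95% Wilson interval of counting error and a grey line for equal levels. Circles are HMRs in windows of factor genes and triangles those in windows of enzyme genes, colours mark the call. Most HMRs lie above the line, Bhlha15 HMR 1 farthest, and Bhlha15 HMR 4 lies below it in both subtypes and Ctrb1 HMR 1 in eYFP+ cells.

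Ctrb1 HMR 1 (chr8:112407270-112407515), 10249 bp beyond the start of the chymotrypsinogen gene, was called in the P2 eYFP- and the P60 eYFP+ pools and not in the other two. It was thus in the set for being low in those pools, and its opposite order of the subtypes at the stages is a description that no test here supports. Its 246 bases are shown on the plus strand. An eighth CpG begins at the last base.
Ctrb1 HMR 1: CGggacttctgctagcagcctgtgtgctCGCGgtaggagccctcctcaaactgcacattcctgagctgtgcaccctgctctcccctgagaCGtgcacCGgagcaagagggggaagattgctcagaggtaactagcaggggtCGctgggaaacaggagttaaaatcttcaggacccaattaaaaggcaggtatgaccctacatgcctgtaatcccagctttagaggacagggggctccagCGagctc

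Ctrb1 HMR 1 was at 20.1% and 30.5% at P2 and at 28.1% and 19.3% at P60 (eYFP- and eYFP+). The difference of P60 minus P2 was -11.1 points in eYFP+ cells (adjusted exact p = 0.00638) and 8.01 points in eYFP- cells (adjusted exact p = 0.0575). The difference of the log odds ratios (Woolf's test) had an adjusted p of 0.0291, where 1.12% of all HMRs passed, on the same reads that chose the region. None of the 20 member HMRs called in all 4 pools passed that test (lowest adjusted p 0.0823), where 1.15% of all such HMRs did. An HMR was called there in 2 of 2 P2 eYFP- libraries and in no other library. The difference of eYFP+ minus eYFP- was 10.4 points at P2 (adjusted exact p = 0.2) and -8.77 points at P60 (adjusted exact p = 0.107).

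None of the 33 HMRs was called between eYFP+ and eYFP- cells, at P2 (1.29% of all HMRs called) or at P60 (0.646%). By unadjusted Fisher's exact tests 7 had p under 0.05 at P2 and 4 at P60, and 1 at each stage had an adjusted p under 0.05 with under 10 points. At P2 this was Nr5a2 HMR 6, with -2.62 points for eYFP+ minus eYFP- (adjusted exact p = 0.00671), and at P60 Bhlha15 HMR 4. The largest difference at P2 was that of Rbpjl HMR 4 (chr2:164250283-164250369), 87 bp in a coding exon, at 22.9% in eYFP- and 39.7% in eYFP+ cells (adjusted exact p = 0.0728). At P60 it was at 21.8% and 31.1% (adjusted exact p = 0.167), with all 7 CpGs higher in eYFP+ cells. It was called in the eYFP- pools alone, so these differences are a description.

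Differentially methylated regions (DMRs) between the subtypes were rebuilt from the pooled HMRs and counts, as parts of an HMR of 1 pool without an HMR in the other, with at least 50 bp and 2 differing CpGs. At P2, 4 were lower in eYFP- cells, in the windows of Rbpjl (2), Cela1 and Ctrb1, and 1 was lower in eYFP+ cells, at the Nr5a2 start. They lay in 5 of 33 HMRs, where 4.64% of all merged HMRs held a DMR. The DMR at the Nr5a2 start (chr1:136877448-136877602) was at 38.6% and 18.2% at P2 and at 54.7% and 48.5% at P60. It shares CpGs with the short window of Nr5a2 above and is not a separate result. That of Cela1 (chr15:100583156-100583231, intron) was at 20.2% and 43.2% at P2 and at 26.4% and 32.4% at P60. At P60, 1 was lower in eYFP- cells (Bhlha15 HMR 4) and 1 lower in eYFP+ cells (Ctrb1 HMR 1), where 2.67% of all merged HMRs held one. The DMRs were selected for a difference between these pools, so their levels at the stage of selection are a description.

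In single libraries, 23 or 24 of the 33 HMRs were present at P2 and 16 to 20 at P60. The mean share was 72.0% ± 1.52 (SD, n = 4 libraries) at P2 and 54.5% ± 5.12 (SD, n = 8) at P60, which did not overlap (two-sided exact permutation test p = 0.00202, the smallest it can give). The same share over all merged HMRs fell from 68.3% to 50.6%, by 17.7 points beside 17.4 for the members. The groups of members differed in this: the share of the 24 factor HMRs was between 75.0% and 79.2% in the P2 libraries and between 62.5% and 70.8% in the P60 libraries, and that of the 9 enzyme HMRs between 55.6% and 66.7% and between 11.1% and 33.3%. Neither group overlapped between the stages, and no test was made for the groups. Of the enzyme HMRs only Cela1 HMR 2, Pnlip HMR 1 and Cel HMR 1 were called in all 4 pools, while most factor HMRs were. The contrast of the groups therefore cannot be told apart from how their HMRs entered the set. The enzyme share at P60, over 9 HMRs, was 11.1% in the female libraries and 33.3% in the male ones. The share of all merged HMRs also split by sex there, with 44.1% to 50.1% in female and 52.8% to 56.8% in male libraries. No sex difference particular to the enzyme genes is read from this. The merged HMRs come from pools of these libraries, so the set itself holds HMRs of P2 pools alone. With eYFP+ libraries alone the difference was -18.2 points (exact p = 0.0667, the smallest it can give). Of the 33, 15 were present in all 12 libraries, where 36.6% of all HMRs were.

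Between the subtypes, the shares overlapped at P60. At P2 the share was 72.7% ± 0.0 (SD, n = 2) in eYFP- and 71.2% ± 2.14 (SD, n = 2) in eYFP+ libraries (exact permutation p = 1.0, with 0.333 the smallest possible). At P60 it was 56.1% ± 5.25 (SD, n = 4) and 53.0% ± 5.25 (SD, n = 4; exact permutation p = 0.514). Each P60 eYFP- library had 1 HMR more than the eYFP+ library of the same replicate number, and with the replicate block the exact permutation p was 0.125, the smallest possible with 4 pairs. The female P60 libraries held 16 to 17 of the 33 and the male ones 19 to 20, and they also held fewer HMRs in all (38052 to 44636 against 46269 to 49939). Bhlha15 HMR 2 and Cel HMR 1 were present in the 4 male P60 libraries and in none of the 4 female ones. The share of all merged HMRs with this pattern is not given here, so no sex difference particular to these regions is read from it.

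**Figure D5:**
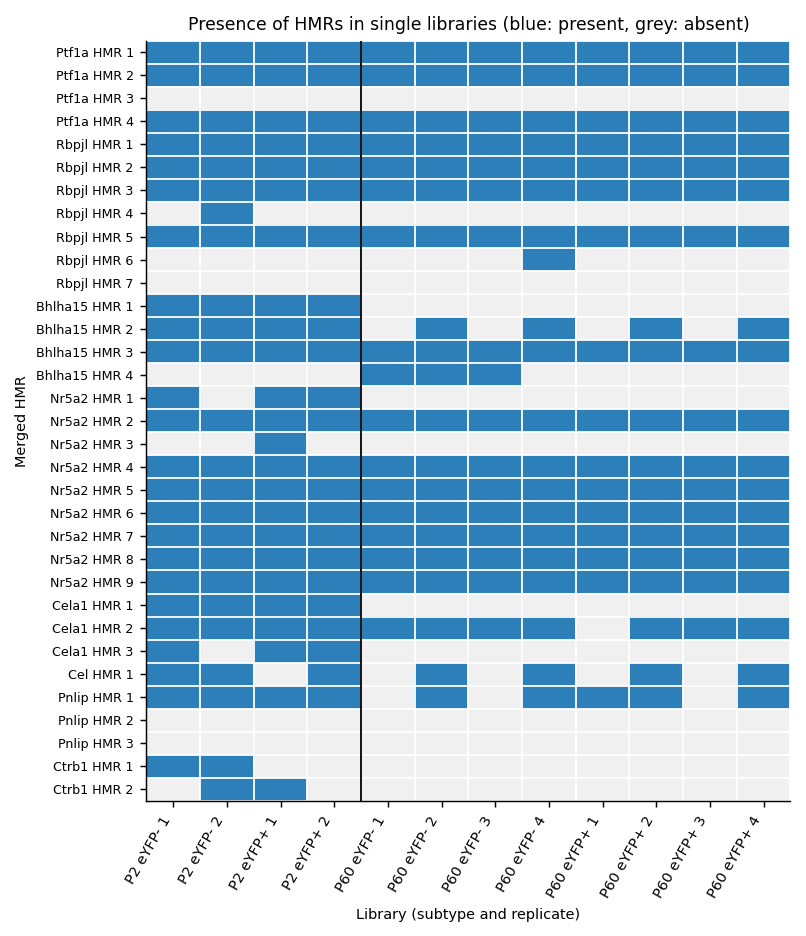
Presence (blue) or absence (grey) of each of the 33 HMRs (y axis) in each of the 12 libraries (x axis), with a black line between P2 and P60. The 15 HMRs present throughout lie in windows of factor genes. Bhlha15 HMR 1 and Cela1 HMR 1 are present in all libraries at P2 and in none at P60, and Bhlha15 HMR 4 is present in 3 P60 eYFP- libraries alone.

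Among 22 further acinar genes, 19 promoters could be tested, with a median of 60.3% and 63.0% at P2 and of 67.5% and 66.5% at P60. With age 3 of them rose in eYFP- and 4 in eYFP+ cells, where 3.28% and 3.04% of all promoters did, none fell, and none was called between the subtypes. Clps, the colipase that pancreatic lipase needs, went from 51.9% and 55.3% to 79.8% and 75.5%. The lipase-related gene Pnliprp1 went from 34.7% and 38.0% to 53.3% and 54.5%, and Cela3b, an elastase gene, from 68.2% and 68.9% to 83.0% and 84.8%. Rnase1, a secreted ribonuclease, rose by 14.2 points in eYFP+ cells, with 6.58 points in eYFP- cells (adjusted exact p = 0.0703). The 2 further acinar factor genes, Gata4 and Mecom, were between 12.4% and 24.4%.

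Promoters of other cell types moved with age beside these. Of 8 duct genes, 2 rose in both subtypes: Krt19, a duct keratin, from 35.1% and 31.9% to 62.8% and 58.5%, and Tspan8, a membrane protein, from 30.2% and 32.7% to 50.5% and 46.5%. The median of the duct list was 8.46%, 9.06%, 11.1% and 11.8%. Of 4 immune genes Cd68 rose in both subtypes, from 50.3% and 54.4% to 61.3% and 64.9%, and none of 3 endothelial, 4 mesenchymal and 6 other islet genes was called. The part of cells other than beta cells in the changes of the acinar genes was not tested.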

How the data were processed

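Tagmentation-based whole genome bisulfite sequencing was done by the authors on 12 libraries of sorted beta cells. The authors trimmed the reads (Trim Galore 0.6.6, cutadapt 1.16 and SAMtools 1.5 in the submitters' processing notes) and processed them on mm39 with abismal and MethPipe, whose versions are not given in the sources used here. For each stage the authors deposited HMR positions and counts of methylated and unmethylated reads of each CpG in 2 pools, B1 and B2. The files do not name the pools. B1 was taken as eYFP- and B2 as eYFP+: of HMRs in B1 alone at P2, 29.1% and 23.0% were in the eYFP- libraries and 5.65% and 6.34% in the eYFP+ libraries. The authors' difference scores and DMR lists were not used. Depth averaged 24.4 to 44.1 reads per CpG.

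The level of a region was methylated over all reads on CpGs with at least 5 reads in each pool, for regions with at least 3 such CpGs. Levels have 95% Wilson intervals. Fisher's exact tests were adjusted by Benjamini-Hochberg over all regions, with calls at 0.05 and 10 points. Intervals and p-values cover counting error of PCR reads, not mice. Shares of HMRs in libraries were compared by exact permutation tests. Fisher's and Woolf's tests were tried on simulated read counts, which held no spread between mice or libraries. A CpG differed in a rebuilt DMR where the probability of a lower level passed 0.95. Starts are those of canonical GENCODE vM39 transcripts. Python 3.11.15, numpy 2.4.6, scipy 1.17.1, pandas 2.3.3 and numba 0.67.0 were used.

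P60 replicate numbers were treated as pairs, since the presence of HMRs in same-numbered libraries correlated by 0.15, 0.204, 0.309 and 0.14 across autosomal HMRs; at P2 it was 0.0142 for 2 numbers. P60 numbers 1 and 3 are female and 2 and 4 male, and differently numbered libraries of the same sex correlated by 0.0103 to 0.232, so the number and the sex are not told apart by this check. Counts over HMRs called in all 4 pools were added after seeing the data. All members were named, with the HMRs called in any comparison, at a start or lowest in a window, and other listed genes where called or as examples; Rbpjl HMR 4, Bhlha15 HMR 2, Ptf1a HMR 4 and single CpGs were chosen after their values were seen. Members, lists and tests were chosen with earlier results of these data known. Alternatives were tried for coverage, minimum difference, window, promoter length, HMR length and libraries. Expression was not analysed here.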

Additional observations from a re-analysis of the deposited data

Results flagged for a closer look

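Ctrb1 HMR 1 is listed here because Woolf's test of whether its change from P2 to P60 differed between the subtypes had an adjusted p of 0.0291 over 84192 HMRs. The region was called in the P2 eYFP- and P60 eYFP+ pools alone, and the test used the same reads, so this p does not support a difference between the subtypes. Its level went from 20.1% to 28.1% in eYFP- and from 30.5% to 19.3% in eYFP+ cells, over 8 CpGs with 219, 220, 452 and 357 reads in the 4 pools. Its CpG at 25 bp before the centre was at 23.8% and 71.4% at P2, each from 21 reads. No single library of P60 has an HMR there, and counts of single libraries were not analysed here, so the spread between libraries behind these values was not tested.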

How the results depend on the processing

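The 2 counts of called HMRs between subtypes were 0 and became 1 at P2 and 1 at P60 without the minimum difference. Called HMRs with age numbered 10 in eYFP- cells, and 20 without the minimum difference, 2 with 20 points, 4 in gene bodies alone and 6 with 5 kb flanks. In eYFP+ cells they numbered 11, and 20, 4 and 6 with no minimum, 20 points and gene bodies alone. Among the HMRs called in all 4 pools, a choice made after seeing the data, those called with age numbered 4 in eYFP- and 3 in eYFP+ cells, and those whose change differed between the subtypes by Woolf's test went from 1 to 0. Called promoters at P2 went from 0 to 1 with 250 bp before to 50 bp after the start (Nr5a2). Those with age in eYFP- cells went from 2 to 1 with this promoter, 0 with 2000 bp before to 1000 bp after, 1 with the 5′ end of the gene record and 4 without a minimum, and in eYFP+ cells from 2 to 0 with the wide promoter and 4 without a minimum. Cel turned from -10.1 points to 7.65 points in eYFP- cells in the short promoter (adjusted exact p = 0.48). Cpa1 was higher by 8.0 and 8.52 points in the wide promoter, under the minimum. Bhlha15 in eYFP- cells with age was at -0.979 points as an unweighted mean of CpG levels. Rebuilt DMRs went from 5 to 2 at P2 and from 2 to 1 at P60 with at least 3 differing CpGs, and to 1 at P60 in gene bodies alone. The causes were not tested, beyond fewer or more regions entering. CpG minimums of 1 or 10 reads and HMRs of at least 200 bp changed no count by over 1.5 times.

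The share of members' HMRs per library with age, -17.4 points, was -16.7 in eYFP- and -18.2 in eYFP+ libraries alone, where the exact permutation p of 0.0667 is the smallest possible. Leaving out 1 library gave -18.3 to -16.6 points with age, -3.03 to 0.0 between subtypes at P2 and -4.55 to -1.52 at P60. With a replicate block at P60 the difference of -3.03 points had an exact permutation p of 0.125, the smallest possible with 4 pairs, and the block changed no call. Depth limits single CpGs at P2, many of which rest on fewer than 30 reads, and pools give no error between mice.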
